A study of Mus musculus with 10 samples.

Results

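The proteins of the spliceosomal small nuclear ribonucleoproteins (snRNPs) and their relatives were followed in RNA-seq of mouse lineage-negative (Lin-) bone marrow cells. They were taken as the protein-coding genes whose symbol begins with Snrp, Sf3a, Sf3b, Prpf or Lsm and goes on with a digit or a lower-case letter, which gave 49 of the 55359 genes in the table. The rule reads symbols alone, so it also took Lsmem1 and Lsmem2, 2 leucine-rich single-pass membrane proteins that are alike only in name, and it left out proteins of the same particles with other symbols. The remaining 47 genes code for proteins of the splicing machinery or for LSm proteins that work elsewhere. All 49 genes lie on autosomes.

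The study asked what the helicase DHX9 does in hematopoietic stem cells. WT libraries came from Dhx9f/f mice, which carry floxed Dhx9 alleles and, by their label, no Cre, and cKO libraries from Dhx9f/f;MX1 mice, which carry the same alleles with Cre under the interferon-responsive Mx1 promoter. There were 5 libraries of each group. Poly(I:C), a double-stranded RNA mimic that induces interferon, was used to switch on Cre in the MX1 mice, in 3 injections, and by the general methods tissue was taken at day 7 counted from the initial injection. In some other experiments the study describes both genotypes after poly(I:C), but for the WT mice behind these libraries the treatment is not given in the sources used here, nor is the age in days or weeks of the mice sequenced. Mx1-Cre acts in many interferon-responsive cell types, and Lin- cells, left after a kit removed cells with lineage markers, are a mixture of stem and progenitor cells.

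Introns are removed by the spliceosome, which assembles on each pre-mRNA from the U1, U2, U4/U6 and U5 snRNPs. Every snRNP except U6 is built on a ring of Sm proteins, which the SMN complex loads on the snRNA in the cytoplasm, whereas U6 carries a ring of LSm proteins. U1 reads the 5′ splice site, U2 with its SF3A and SF3B complexes reads the branch site, and the U4/U6·U5 tri-snRNP then joins and is remodelled into the catalytic form. Mutations in genes of this machinery, SF3B1 among them, are common in human myelodysplastic syndromes.

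The targeted gene went against the labels. Dhx9 was at 65.4 to 72.4 FPKM (fragments per kilobase of gene per 1e6 mapped fragments) in the WT libraries and at 131 to 156 FPKM in the libraries labelled cKO, a log2 difference of 1.0 (adjusted p = 1.39e-05, limma with Benjamini-Hochberg adjustment), so that every direction below rests on the labels. The estimated depth was 13837000 to 18712500 fragments per library. Xist was at 99.2 to 128 FPKM in WT 3, WT 4 and WT 5 and at most 0.09 FPKM in the other 7 libraries, with the Y-linked Ddx3y the other way round, so that sex is partly confounded with genotype. Blood lineage markers differed widely. Of 19 erythroid markers tested, 11 were called higher at a fold of at least 2 in the libraries labelled cKO, with a summed level of 1835 to 3262 FPKM in WT and 5200 to 8626 FPKM in cKO. Of 16 monocyte and dendritic cell markers, 14 were called lower, with a summed level of 1084 to 1861 FPKM in WT and 12.3 to 343 FPKM in cKO. Of 12 stem cell markers, 8 were called lower (87.9 to 115 FPKM against 34.4 to 55.0 FPKM), as were 8 of 14 neutrophil, 7 of 10 B lymphoid, 8 of 12 T and NK, 9 of 11 mast cell, basophil and eosinophil, and 11 of 11 megakaryocyte markers. In these 7 lists 1 marker was called higher, the mast cell gene Tpsb2, which was named after its values were seen and averaged 0.008 FPKM in WT and 0.264 FPKM in cKO. Some markers had a positive log2 difference without such a call, among them 4 of the 14 neutrophil markers. At an adjusted p under 0.05 alone, 1 of the 12 stem cell markers was higher and 10 were lower. The higher one had a log2 difference of 0.88, and its groups did not overlap. No marker tested was at 0 in all libraries. In such bulk samples fewer cells of a type and less RNA per cell cannot be told apart, and the part of cell makeup in the values below was not tested.

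The promoters of 3 of the genes that moved are shown, 1 that rose (Prpf8) and 2 that fell (Lsm11 and Lsm14b). Each sequence is the 250 bases before the annotated start of the canonical transcript, read 5′ to 3′ on the gene's strand from GRCm39 with the GENCODE M39 annotation. Capitals mark matches on either strand to CCGGAAG (the core of ETS factor sites), GCATGCG (NRF1), GGGCGG (SP/KLF), ATGGCGG (YY1), CACGTG (the E-box), CCAAT (NF-Y) or TATAAA (the TATA box).
Prpf8 (chr11:75377370-75377619, plus strand): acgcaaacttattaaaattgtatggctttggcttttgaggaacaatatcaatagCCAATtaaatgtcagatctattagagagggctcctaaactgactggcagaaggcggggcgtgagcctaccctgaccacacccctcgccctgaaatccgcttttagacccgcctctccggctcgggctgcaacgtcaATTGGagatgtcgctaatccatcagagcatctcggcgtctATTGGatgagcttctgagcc
Lsm11 (chr11:45835788-45836037, minus strand): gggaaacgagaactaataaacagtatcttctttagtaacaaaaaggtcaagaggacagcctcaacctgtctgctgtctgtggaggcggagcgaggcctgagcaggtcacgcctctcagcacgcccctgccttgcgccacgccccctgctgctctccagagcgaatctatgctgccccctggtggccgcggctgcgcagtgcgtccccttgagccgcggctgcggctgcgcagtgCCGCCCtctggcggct
Lsm14b (chr2:179665982-179666231, plus strand): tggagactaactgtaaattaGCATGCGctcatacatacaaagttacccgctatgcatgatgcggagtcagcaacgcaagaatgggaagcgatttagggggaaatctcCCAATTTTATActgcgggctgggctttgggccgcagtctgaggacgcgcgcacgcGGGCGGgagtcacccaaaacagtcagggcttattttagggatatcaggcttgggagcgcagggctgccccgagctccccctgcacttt

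Shares of promoters with a motif were set beside those of all genes. CCAAT was in 19 of the 46 promoters of tested snRNP and LSm genes (41.3%) and in 36.3% of 12877 protein-coding promoters of the same length. GGGCGG was in 21 (45.7%, against 47.7% of all), CCGGAAG in 6 (13.04% against 9.93%), GCATGCG in 4 (8.70% against 4.42%), CACGTG in 4 (8.70% against 7.67%) and ATGGCGG in 2 (4.35% against 3.08%). TATAAA was in 6 (13.04% against 7.70%). Of the 22 snRNP and LSm genes that rose, 11 held CCAAT, 10 GGGCGG, 3 CCGGAAG, 2 CACGTG, 2 ATGGCGG, 1 GCATGCG and 0 TATAAA, and these counts were not tested. Matches of this kind describe letters in a window and do not show that a factor binds there.

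The snRNP genes were modestly higher in the libraries labelled cKO. Of the 47 genes that averaged 0.1 FPKM or more, 23 rose at an adjusted p under 0.05 (48.9%) and 3 fell (6.38%), while over all 18742 genes tested 45.0% passed, 16.7% higher and 28.3% lower. With a fold change of at least 2 as a further condition, 1 of the 47 was called higher, against 4.6% of all genes tested, and 0 were called lower, against 16.8% of all (21.4% in either direction). At an unadjusted p under 0.05, limma gave 24 higher and 4 lower. Differences are given as log2(FPKM + 0.1) in the libraries labelled cKO minus that in WT. The median log2 difference was 0.22 over the 47 genes and -0.11 over all genes tested, so that typical shifts were small. Groups did not overlap for 15 genes that were higher and for 2 that were lower, against 10.6% and 21.6% of all genes tested. All 47 tested genes were at or above 0.1 FPKM in each library, and among all genes that averaged 1 FPKM or more the background was 22.4% higher and 31.4% lower.

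The counts were smaller without the WT libraries that express Xist, a fit that also has fewer libraries. With WT 1 and WT 2 alone against the 5 libraries labelled cKO, which have no Xist above 1 FPKM, 11 of the 23 still rose and 0 genes fell in limma, where 21 were higher and 3 lower at an unadjusted p under 0.05, and the median was 0.24. With a covariate for Xist, 15 rose and 0 fell in limma, with 23 higher and 3 lower at an unadjusted p under 0.05. No cKO library has Xist above 1 FPKM, so this fit gives the same log2 differences and median by construction. It is not a second estimate. Calls over all genes tested became fewer too, from 3138 higher and 5300 lower to 1640 and 3075 with WT 1 and WT 2 alone. With the covariate they were 2035 and 4021, so the smaller counts are not particular to the snRNP and LSm genes. With WT 1 and WT 2 alone, Snrpd1, Snrpa, Snrpc, Sf3a2, Sf3b1, Prpf3, Prpf4, Prpf31, Prpf19, Prpf38a, Lsm7 and Lsm1 no longer passed. Scaling mattered for the comparison with other genes. With median-ratio scaling 29 rose and Lsm11 alone fell. After quantile normalization 18 rose and 2 fell (Lsm6 and Prpf38b), 54.5% of all calls were higher in place of 37.2%, and the median of all genes moved from -0.11 to 0.10, so that the distance of the 47 genes' median from it shrank from 0.33 to 0.10. Lsm4, Prpf6, Prpf8, Sf3b3, Snrpa1, Snrpb, Snrpd3 and Snrpf rose under every alternative tried, those without a library included.

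**Figure D1:**
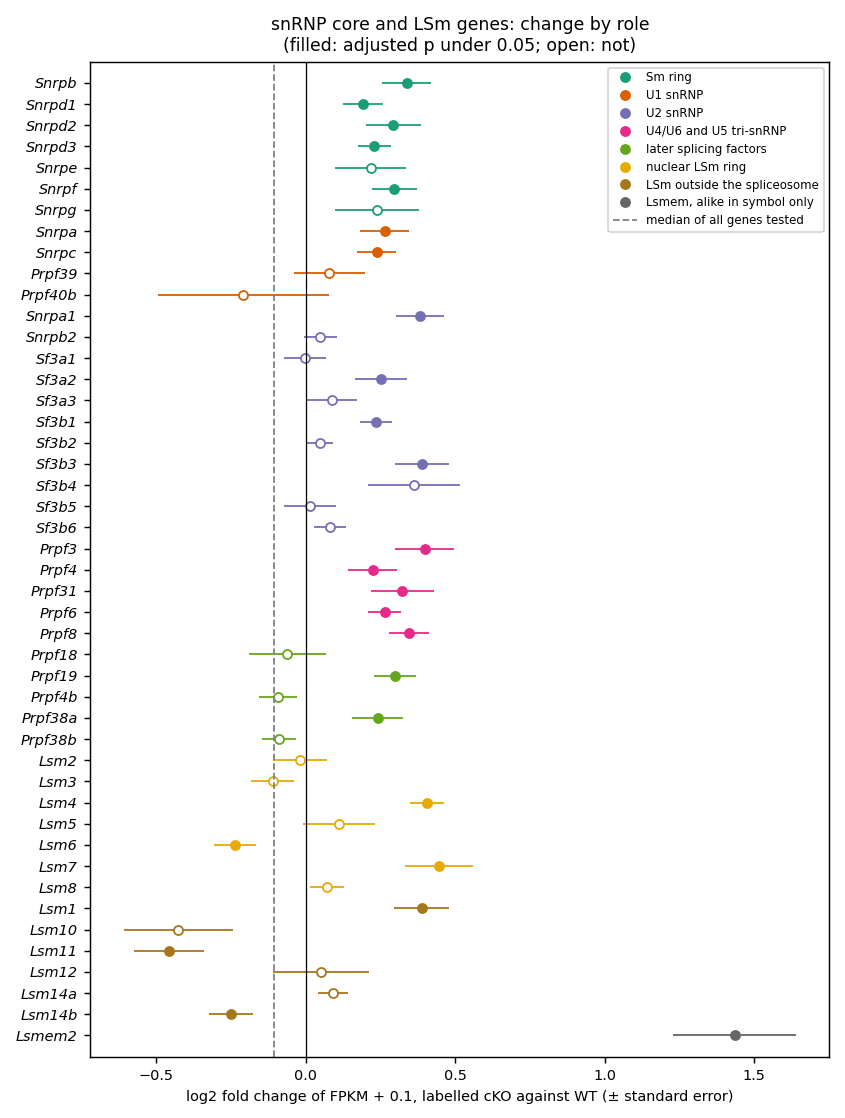
Log2 difference of 46 tested genes between the libraries labelled cKO and WT (x axis, log2(FPKM + 0.1), bars show 1 SE of the limma fit), with 1 gene per line on the y axis, coloured by role, filled where the adjusted p was under 0.05 and open elsewhere. The dashed line is the median of all genes tested, -0.11. All Sm ring and tri-snRNP genes sit to the right of 0, Lsm6, Lsm11 and Lsm14b are the 3 that fell, and Lsmem2 stands apart at 1.43.

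The Sm ring genes were all on the higher side in the libraries labelled cKO. The ring consists of SmB, SmD1, SmD2, SmD3, SmE, SmF and SmG, and all 7 of its expressed genes had a positive log2 difference, from 0.19 to 0.34. Of these, 5 rose (71.4%, against 16.7% of all genes tested) and Snrpe and Snrpg did not pass. Against WT 1 and WT 2 alone 4 of the 7 rose, and after quantile normalization 3 rose. Snrpf, the highest of the 49 genes in FPKM, codes for SmF. It was at 122, 147, 153, 149 and 143 FPKM in WT 1 to 5 and at 156, 176, 172, 184 and 189 FPKM in cKO 1 to 5. The lowest cKO library lay above the highest WT library, and the means were 143 ± 12.0 and 175 ± 12.6 FPKM (SD, n = 5 each). The log2 difference of Snrpf was 0.30 with an SE of 0.0755 (adjusted p = 0.00816).

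Snrpb, which codes for SmB and its splice form SmB′, gave the largest difference of the ring. Its levels were 89.4, 114, 121, 109 and 106 FPKM in the WT libraries and 125, 138, 130.1, 144 and 143 FPKM in the cKO libraries. Here too the groups did not overlap, WT 1 was the lowest library, and the log2 difference was 0.34 with an SE of 0.0818 (adjusted p = 0.00620). Snrpd3 was at 41.6 to 48.3 FPKM in WT and 48.4 to 53.7 FPKM in cKO, a log2 difference of 0.23 (adjusted p = 0.00676). Snrpd1 and Snrpd2, whose proteins form a dimer in the ring, rose by 0.19 (adjusted p = 0.0384) and 0.29 (adjusted p = 0.0242), each with overlapping groups. Snrpe gave 0.22 (adjusted p = 0.163) and Snrpg 0.24 (adjusted p = 0.188). Libraries of those last genes spread widely, with Snrpg at 11.6 to 17.0 FPKM in WT and 14.0 to 22.5 FPKM in cKO.

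Snrpn, the imprinted Sm gene that replaces SmB in brain, was close to absent. It was at 0 to 0.06 FPKM in WT and 0 to 0.09 FPKM in cKO, or about 0 to 5 fragments, and was not tested. Short Sm genes have processed copies elsewhere in the genome and Snrpn shares its transcripts with Snurf, so that fragments of these genes may have been split or dropped at counting and their levels are uncertain.

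Of the 5 U1 genes taken by the rule, 3 rose (60%) and 0 fell, against 16.7% and 28.3% of all genes tested. The counts were the same at an unadjusted p under 0.05 in limma. Against WT 1 and WT 2 alone 1 rose. Snrpa and Snrpc code for the A and C proteins of the U1 particle, and Prpf39 and Prpf40b are mouse relatives of U1-associated yeast factors. Snrpa, the highest of these 5 genes, was at 32.1, 41.4, 41.0, 41.3 and 41.3 FPKM in WT and at 42.8, 48.0, 49.7, 48.4 and 47.0 FPKM in cKO. WT 1 lay below the other 4 WT libraries, and all WT libraries lay below the cKO libraries, with a log2 difference of 0.26 (adjusted p = 0.0209). Snrpc rose by 0.24 (adjusted p = 0.0124), also without overlap. Against WT 1 and WT 2 alone the adjusted p-values of Snrpa and Snrpc were 0.0507 and 0.0903. Prpf39 gave 0.08 (adjusted p = 0.621) and did not pass. Prpf40b was low, at 2.41, 1.89, 1.75, 1.64 and 1.96 FPKM in WT and 0.70, 1.91, 2.45, 1.95 and 1.81 FPKM in cKO. The lowest library, cKO 1, held about 34 fragments, and the log2 difference was -0.21 (adjusted p = 0.585) with it and 0.07 without it.

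Among the U2 genes the difference was uneven, with 4 of 11 genes higher (36.4%), 0 lower and a median of 0.09. Over all genes tested, 16.7% were higher and 28.3% lower. Snrpa1 codes for a core protein of U2 that binds the U2 snRNA together with the product of Snrpb2. Snrpa1 was at 23.7, 30.0, 32.3, 26.9 and 27.5 FPKM in WT and 34.4, 38.0, 36.0, 36.8 and 37.2 FPKM in cKO, with no overlap and a log2 difference of 0.38 with an SE of 0.0805 (adjusted p = 0.00284). Its partner Snrpb2 was at 29.9 to 32.3 FPKM and 30.4 to 34.6 FPKM, and its log2 difference was 0.05 (adjusted p = 0.512). The mean of Snrpa1 was below that of Snrpb2 in WT, at 28.1 against 31.3 FPKM, and above it in cKO, at 36.5 against 32.4 FPKM.

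Sf3b1, the large scaffold of the SF3B complex that closes around the branch site, was the highest U2 gene. It was at 63.0, 57.8, 59.0, 59.2 and 57.9 FPKM in WT and 71.8, 69.9, 68.5, 75.1 and 64.6 FPKM in cKO. The lowest cKO library, cKO 5, was still above WT 1, the highest WT library, and the log2 difference was 0.24 (adjusted p = 0.00463), with an adjusted p of 0.105 against WT 1 and WT 2 alone. Sf3b3, another large SF3B subunit, was at 41.5, 49.6, 52.2, 47.6 and 41.4 FPKM in WT and 50.6, 64.7, 64.3, 63.7 and 60.9 FPKM in cKO. Here cKO 1 fell within the WT range while the other 4 cKO libraries lay above it, with a log2 difference of 0.39 (adjusted p = 0.00528). Sf3b4, which binds near the branch site, had a log2 difference of 0.36 (adjusted p = 0.0764) but did not pass, and its libraries were spread over 33.5 to 52.8 FPKM in WT and 39.8 to 66.5 FPKM in cKO. The remaining SF3B genes gave 0.05 (adjusted p = 0.422) for Sf3b2, 0.01 (adjusted p = 0.910) for Sf3b5 and 0.08 (adjusted p = 0.252) for Sf3b6. Of the SF3A genes, Sf3a2 rose by 0.25 (adjusted p = 0.0361), while Sf3a1 gave -0.00236 (adjusted p = 0.983) and Sf3a3 0.09 (adjusted p = 0.423).

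All 5 genes of the U4/U6·U5 tri-snRNP that the symbol rule took rose, against 16.7% of all genes tested. The snRNP proteins with other symbols, given further below, did not all pass. Prpf8 codes for the largest protein of the U5 snRNP, which forms the scaffold of the catalytic centre, and was the third of the 49 genes by mean FPKM. It was at 95.3, 106, 116, 104 and 101 FPKM in WT 1 to 5 and 131, 143, 123, 139.6 and 127 FPKM in cKO 1 to 5. All cKO libraries lay above all WT libraries, with means of 105 ± 7.65 and 133 ± 8.48 FPKM (SD, n = 5 each) and a log2 difference of 0.34 with an SE of 0.0667 (adjusted p = 0.00177). Prpf6, which bridges U5 and U4/U6, was at 25.0 to 28.6 FPKM and 30.4 to 33.1 FPKM, again without overlap, and rose by 0.26 (adjusted p = 0.00249).

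The U4/U6 proteins Prpf3, Prpf4 and Prpf31 rose with overlapping groups. Prpf3 was at 13.3, 15.8, 15.4, 14.9 and 14.9 FPKM in WT and 15.2, 21.1, 21.2, 20.9 and 20.2 FPKM in cKO. Here cKO 1 lay among the WT libraries and the other 4 lay well above them, with a log2 difference of 0.40 (adjusted p = 0.00727). Prpf31, which holds the U4 snRNA and is mutated in a form of retinitis pigmentosa, rose by 0.32 (adjusted p = 0.0284), and Prpf4 by 0.22 (adjusted p = 0.0465). Against WT 1 and WT 2 alone, Prpf6 and Prpf8 passed, with adjusted p-values of 0.0220 and 0.0205, and Prpf3, Prpf31 and Prpf4 did not, with 0.0790, 0.0805 and 0.197.

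**Figure D2:**
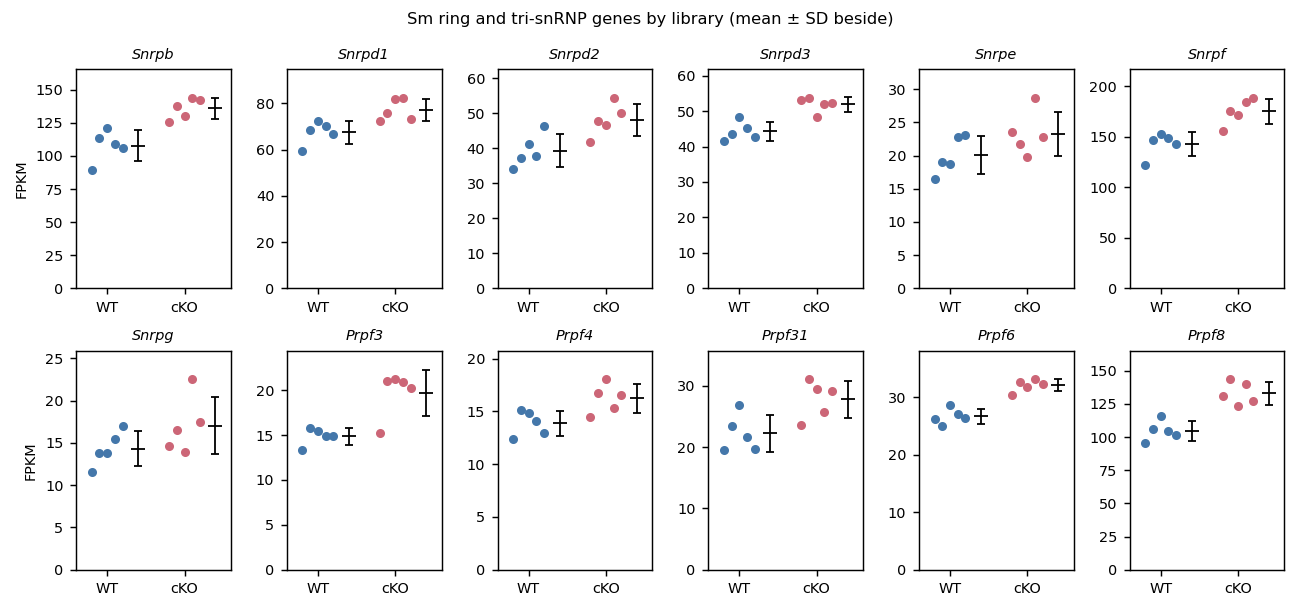
FPKM (y axis, from 0) of 7 Sm ring genes and 5 tri-snRNP genes in each of 5 WT and 5 cKO libraries, with the mean and SD beside the points. In Snrpb, Snrpd3, Snrpf, Prpf6 and Prpf8 every cKO point lies above every WT point, and in Prpf3 the cKO 1 point lies among the WT points.

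The factors that join later showed no common direction, with 2 of 5 higher (40%), 0 lower and a median log2 difference of -0.06. Over all genes tested, 16.7% were higher and 28.3% lower. Prpf19, the ubiquitin ligase that gives its name to the complex active during catalytic activation, was at 27.4, 31.9, 32.5, 30.7 and 30.3 FPKM in WT and 32.7, 38.1, 39.1, 38.1 and 40.2 FPKM in cKO. The groups did not overlap, cKO 1 being only just above WT 3, and the log2 difference was 0.30 (adjusted p = 0.00580). Prpf38a, needed at activation, rose by 0.24 (adjusted p = 0.0400) with overlapping groups, whereas its relative Prpf38b gave -0.09 (adjusted p = 0.237). The highest gene of this role, Prpf4b, codes for a kinase that phosphorylates splicing proteins and gave -0.09 (adjusted p = 0.257). Prpf18, a factor of the second catalytic step, was at 16.8 to 17.9 FPKM in WT, and in cKO it was at 23.9, 14.1, 15.6, 15.3 and 14.9 FPKM, where cKO 1 stood above and the other 4 below every WT library. Its log2 difference was -0.06 (adjusted p = 0.728).

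The LSm proteins form 2 rings that share 6 proteins. LSm2 to LSm7 join LSm8 in the nucleus, where the ring holds the end of U6, or LSm1 in the cytoplasm, where the ring promotes decapping and decay of mRNA. The 7 genes of the nuclear ring did not move together, with Lsm4 and Lsm7 higher, Lsm6 lower and the other 4 not passing. That was 28.6% higher and 14.3% lower, against 16.7% and 28.3% of all genes tested. Among genes that averaged 1 FPKM or more, 22.4% were higher and 31.4% lower. Lsm4 had the smallest adjusted p of all 47 genes. It was at 70.7, 69.1, 74.3, 70.5 and 69.0 FPKM in WT 1 to 5 and 94.7, 88.8, 86.9, 103 and 96.3 FPKM in cKO 1 to 5. The gap between the groups was wider than the range within WT, the means were 70.7 ± 2.17 and 93.9 ± 6.25 FPKM (SD, n = 5 each), and the fold was 1.32, or a log2 difference of 0.41 with an SE of 0.0567 (adjusted p = 2.88e-04).

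Lsm7 was at 9.26, 7.72, 7.60, 6.58 and 7.60 FPKM in WT and 12.6, 9.45, 11.6, 9.45 and 9.97 FPKM in cKO. The groups were close but did not overlap, and the log2 difference of 0.45 (adjusted p = 0.00818) was the largest of the ring. Against WT 1 and WT 2 alone it was 0.31 (adjusted p = 0.174), below that of Lsm4 (0.42, adjusted p = 0.0150). Lsm6 went the other way, at 23.2, 22.6, 25.2, 23.1 and 24.3 FPKM in WT and 22.0, 19.8, 17.7, 21.6 and 19.7 FPKM in cKO. Every cKO library lay below every WT library, with a log2 difference of -0.24, an SE of 0.0701 and an adjusted p of 0.0182, but against WT 1 and WT 2 alone the adjusted p was 0.228. Lsm2 gave -0.02 (adjusted p = 0.892), Lsm3 -0.11 (adjusted p = 0.246), Lsm5 0.11 (adjusted p = 0.479) and Lsm8 0.07 (adjusted p = 0.331). In Lsm8 all 10 libraries fell between 14.0 and 16.3 FPKM.

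Outside the spliceosome the LSm genes also differed in direction, with 1 of 6 higher (16.7%), 2 lower (33.3%) and a median of -0.10. These shares are close to those of all genes tested, 16.7% higher and 28.3% lower. Lsm1, the subunit that marks the cytoplasmic ring, was at 6.93, 7.76, 6.38, 7.86 and 7.33 FPKM in WT and 8.41, 10.2, 10.2, 10.1 and 8.75 FPKM in cKO. The lowest cKO library was above the highest WT library, and the log2 difference was 0.39 (adjusted p = 0.00540), with an adjusted p of 0.0736 against WT 1 and WT 2 alone. LSm10 and LSm11 take the place of SmD1 and SmD2 in the U7 snRNP, which processes the ends of histone mRNAs. Lsm11 fell, from 4.73, 4.62, 3.73, 5.06 and 5.40 FPKM in WT to 3.25, 3.17, 3.71, 3.19 and 3.59 FPKM in cKO. The groups did not overlap, although cKO 3 came close to WT 3, and the log2 difference was -0.46 with an SE of 0.117 (adjusted p = 0.00848).

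Lsm10 gave a similar log2 difference of -0.43 (adjusted p = 0.0798) that did not pass. Its WT libraries were within 13.5 to 15.4 FPKM, whereas cKO libraries were at 6.36, 10.2, 11.0, 12.6 and 14.6 FPKM, with cKO 1 the lowest and cKO 5 inside the WT range. Lsm14b, a relative of the P-body protein LSm14A, fell from 16.1, 18.2, 14.8, 18.4 and 16.6 FPKM in WT to 13.4, 14.0, 14.3, 13.8 and 15.1 FPKM in cKO, a log2 difference of -0.25 (adjusted p = 0.0170). Only cKO 5 reached above the lowest WT library. Lsm14a gave 0.09 (adjusted p = 0.165) and Lsm12 0.05 (adjusted p = 0.822). Without the WT libraries with Xist, the log2 differences of Lsm11 and Lsm14b were -0.46 and -0.28, with adjusted p-values of 0.0612 and 0.0690.

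**Figure D3:**
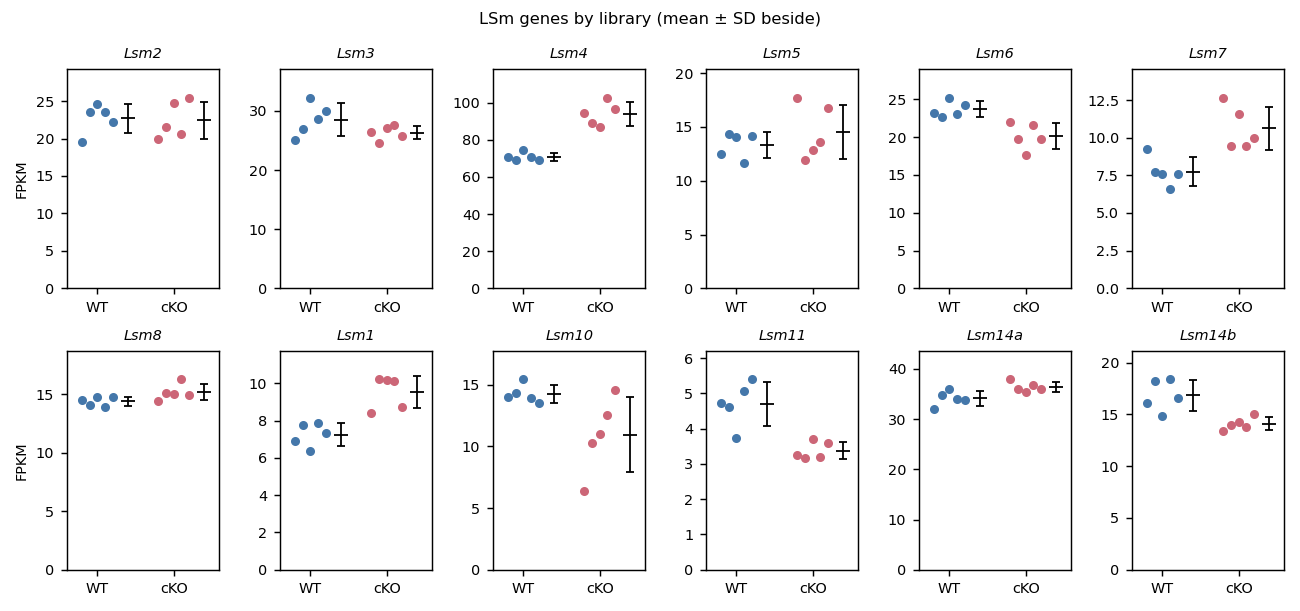
FPKM (y axis, from 0) of LSm genes in each of 5 WT and 5 cKO libraries, with the mean and SD beside the points. Every cKO point lies above the WT points in Lsm4, Lsm7 and Lsm1 and below them in Lsm6 and Lsm11, and the Lsm10 points spread from 6.36 to 14.6 FPKM in cKO.

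The 2 genes alike in symbol only were low. Lsmem2, the only one of the 49 called at a fold of at least 2, was at 0.40, 0.40, 0.51, 0.58 and 0.36 FPKM in WT and 1.01, 1.55, 1.28, 1.58 and 1.52 FPKM in cKO, or about 8 to 16 and 21 to 39 fragments. The groups did not overlap, and the log2 difference was 1.43 with an SE of 0.205 (adjusted p = 3.22e-04), which a pseudocount of 1 took under the fold threshold. Lsmem1 was at 0 to 0.05 FPKM and was not tested. Without these genes, 22 of 46 rose, 3 fell and the median was still 0.22.

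The ratio of related genes within a library is, apart from the pseudocount, not altered by a scaling factor for that library. Of 5 pairs compared, of which 4 are described here, those 4 differed between groups after Benjamini-Hochberg adjustment over the 5 pairs, by a two-sided exact permutation test whose smallest possible p is 0.00794. The log2 ratio of Snrpb2 to Snrpa, which code for closely related RNA-binding proteins of U2 and U1, was -0.33 ± 0.13 in WT and -0.54 ± 0.08 in cKO (SD, n = 5 each), a difference of -0.22 (exact permutation p = 0.00794, adjusted p = 0.0198). The ratio of Lsm1 to Lsm8, the subunits that set the cytoplasmic apart from the nuclear ring, was -0.99 ± 0.15 in WT and -0.67 ± 0.11 in cKO, higher by 0.32 with the same p-values. In both pairs the libraries of the groups did not overlap.

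Lsm14b to Lsm14a changed from -1.02 ± 0.15 in WT to -1.36 ± 0.09 in cKO, a difference of -0.34, and Prpf38b to Prpf38a from 1.83 ± 0.19 to 1.5 ± 0.11, a difference of -0.33. Each gave an exact permutation p of 0.0159 (adjusted p = 0.0198). The ratios were not compared against WT 1 and WT 2 alone or with an Xist term. As single genes, Snrpa, Lsm1, Lsm14b and Prpf38a no longer passed in limma against WT 1 and WT 2 alone. Their adjusted p-values in that fit were 0.0507, 0.0736, 0.0690 and 0.101.

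**Figure D4:**
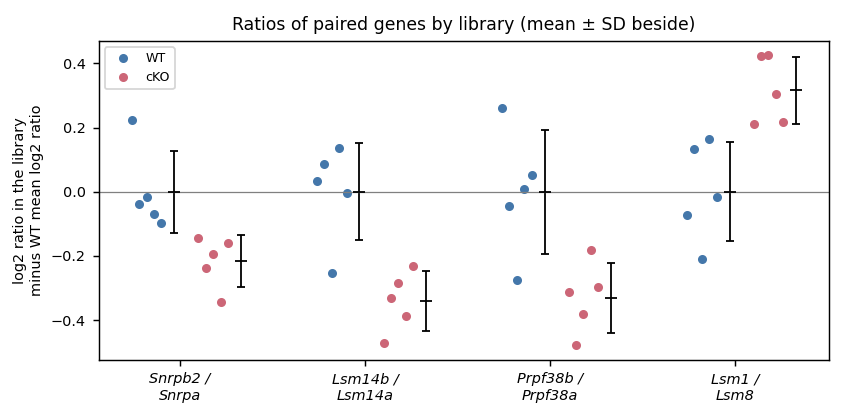
Log2 ratio of 2 related genes (from FPKM + 0.1) in each of 5 WT and 5 cKO libraries, less the mean log2 ratio of WT (y axis), for 4 pairs (x axis), with the mean and SD beside the points. The cKO points lie below the WT points for Snrpb2 to Snrpa and above them for Lsm1 to Lsm8, and for the other pairs the groups overlap.

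Other genes of snRNP assembly and splicing, with symbols outside the rule, moved in the same modest range. Of 83 such genes in 5 lists, 31 rose (37.3%) and 12 fell (14.5%) at an adjusted p under 0.05, against 16.7% and 28.3% of all genes tested. The median log2 difference was 0.13, and 0 were called at a fold of at least 2, against 21.4% of all genes tested. At an unadjusted p under 0.05 limma gave 34 higher and 14 lower. With WT 1 and WT 2 alone 11 rose and 5 fell, and with the Xist covariate 15 rose and 6 fell. Among 18 other snRNP proteins, 10 rose (55.6%) and 2 fell (11.1%). Those that fell were Luc7l by 0.34 (adjusted p = 0.00716) and Luc7l3 by 0.21 (adjusted p = 0.0322). Among the 6 that did not pass were Snrnp70 at 0.01 (adjusted p = 0.899), Snu13 at 0.32 (adjusted p = 0.0895), Txnl4a at 0.36 (adjusted p = 0.190) and Ppih at 0.19 (adjusted p = 0.251). Those that rose include Eftud2, the GTPase that partners Prpf8 in the U5 snRNP, and the tri-snRNP factor Usp39. Eftud2 was at 23.1 to 32.3 FPKM in WT and 34.7 to 38.3 FPKM in cKO with a log2 difference of 0.44 (adjusted p = 0.00180). Usp39 gave 0.44 (adjusted p = 0.00494). Of 17 genes of snRNP assembly, 6 rose (35.3%) and 1 fell (5.88%). Strap, a partner of the SMN complex, was at 58.1, 70.9, 81.3, 70.1 and 63.3 FPKM in WT and 94.4, 118, 113, 114 and 108 FPKM in cKO. Its groups did not overlap, and its log2 difference of 0.67 (adjusted p = 2.84e-04) was the largest rise in the 5 lists. Coprs, which pairs with the arginine methyltransferase that modifies Sm proteins, fell by 0.79 (adjusted p = 0.0266) from a low level of 0.800 to 1.36 FPKM.

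Of 27 genes of branch site recognition and catalytic activation, 11 rose (40.7%) and 1 fell (3.70%), against 16.7% and 28.3% of all genes tested. The splice site factor Rbm17 rose by 0.47 (adjusted p = 0.00208) and Cwc22, which places the exon junction complex, by 0.40 (adjusted p = 0.00484). Of the 11 genes of the minor spliceosome, 2 were higher (18.2%) and 4 lower (36.4%), against 16.7% and 28.3% of all genes tested, with a median of -0.00414. After quantile normalization 4 were higher and 0 lower, at unadjusted and adjusted p in limma alike, and 1 was higher and 2 lower with WT 1 and WT 2 alone. Armc7 fell by 0.61 (adjusted p = 0.0289) and Snrnp48, a protein of the U11/U12 snRNP, fell by 0.32 (adjusted p = 0.0248). In cytoplasmic decay and storage, where LSm1 and the LSm14 proteins work, 2 of 10 genes rose (20%) and 4 fell (40%), not far from the shares of all genes tested. The counts were 3 and 3 after quantile normalization and 0 and 2 with WT 1 and WT 2 alone (0 and 3 at an unadjusted p under 0.05 in limma). Patl1, the scaffold that binds the LSm1 ring, was at 17.2, 14.8, 12.9, 16.8 and 15.5 FPKM in WT and 7.76, 10.2, 11.8, 9.66 and 11.6 FPKM in cKO, with no overlap and a log2 difference of -0.60 (adjusted p = 0.00268). Dcp2, the decapping enzyme, was at 17.4 to 22.8 FPKM and 13.4 to 16.2 FPKM, with a log2 difference of -0.42 (adjusted p = 0.00216). In the same list Edc4 rose by 0.22 (adjusted p = 0.0480) and Eif4enif1 by 0.28 (adjusted p = 0.0390). Lsm1 was thus higher in libraries in which Patl1 and Dcp2 were lower and Edc4 and Eif4enif1 higher. It did not pass against WT 1 and WT 2 alone (adjusted p = 0.0736).

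**Figure D5:**
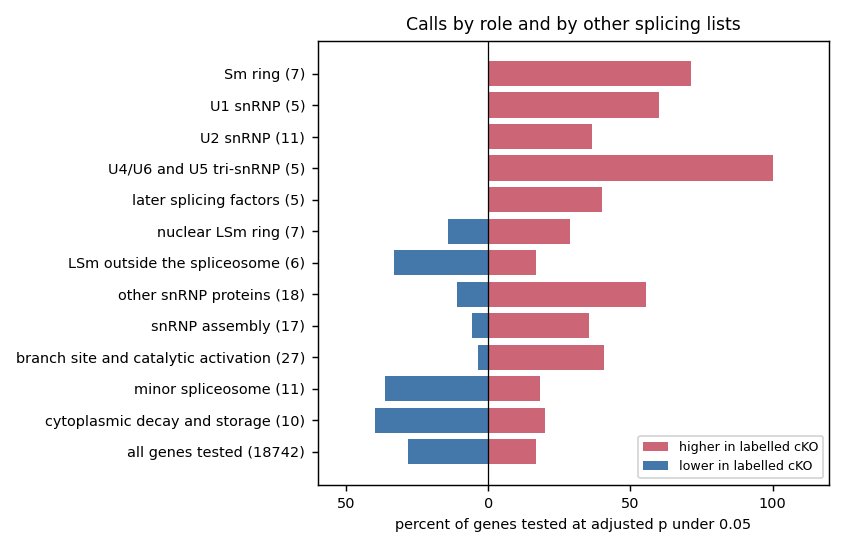
Percent of the tested genes that passed an adjusted p of 0.05 (x axis), with bars to the right for genes higher and to the left for genes lower in the libraries labelled cKO, by role of the snRNP and LSm genes and by list of other splicing and decay genes (y axis, number tested in parentheses). All 5 tri-snRNP genes taken by the rule were higher. The LSm genes outside the spliceosome, the minor spliceosome and the decay genes had more lower than higher genes on this scale. So did all genes tested (28.3% against 16.7%). After quantile normalization this did not hold for any of these.

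Within each group the libraries differed in the level of these genes. Over the 46 tested genes without Lsmem2, WT 1 was the lowest WT library for 25 and cKO 1 the lowest cKO library for 26, while WT 3 was the highest WT library for 25. Their summed level was 1454 FPKM in WT 1 and 1592 to 1687 FPKM in WT 2, WT 3 and WT 4, with WT 5 at 1560 FPKM, and it was 1721 FPKM in cKO 1 and 1824 to 1873 FPKM in the other cKO libraries. The sums of the groups did not overlap. Leaving out 1 library at a time gave 17 to 24 genes that rose, with 17 without WT 1 and also without WT 4, and 24 without cKO 1 and also without WT 3.

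By level, Snrpf, Snrpb, Prpf8 and Lsm4 led the 49 genes, with means over all libraries of 159, 122, 119 and 82.3 FPKM, followed by Snrpd1 at 72.3 and Sf3b1 at 64.7 FPKM. The levels of Snrpb and Prpf8 were close to each other, and their order was not tested. These levels are per length, but the gene lengths behind the deposited FPKM are not given in the sources used here. Across the 46 genes the log2 difference correlated with mean log2 FPKM at r = 0.42 (Spearman rho = 0.31) and with the length of the canonical transcript at r = -0.20 (rho = -0.15). The points share all 10 libraries and are not independent, so no p is given.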

How the data were processed

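Lin- bone marrow cells of Dhx9f/f and Dhx9f/f;MX1 mice were profiled by paired-end RNA-seq, with 5 libraries per group. Per the labels and the methods of the study, the authors removed adapters and reads of quality under 20 (cutadapt 1.9.1), aligned to GRCm39 (HISAT2 2.0.1) and named HTSeq 0.6.1 among their tools. The deposited table holds 1 FPKM value for each gene in each library, to 2 decimals. The gene annotation, gene lengths and strandedness are not given in the sources used here. FPKM are not counts, so a count model was not run. The authors' DESeq2 was replaced by a two-sided moderated test with an intensity trend, limma 3.58.1 in R 4.3.3, applied to log2(FPKM + 0.1). The 18742 genes that averaged 0.1 FPKM or more were tested, and p-values were adjusted over them by the Benjamini-Hochberg method. Fold changes on this scale understate those of low genes. Symbols came from GENCODE M39, in which 54749 of 55359 identifiers were found. Calls used an adjusted p under 0.05, with or without a fold of at least 2.

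The depth of each library was estimated from the steps of low FPKM values in genes with 1 transcript. Of the values up to 20 fragments, 95.3% to 96.1% were whole within 0.2, and a floor of 3 fragments over 1 kb corresponded to 0.160 to 0.217 FPKM. Intervals and floors of this kind cover counting error only. No pair of libraries within a group agreed within sampling noise (the lowest chi-square divided by its degrees of freedom was 3.50). Whether each library is a separate mouse is not given in the labels, so p-values measure the spread between these libraries.

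The genes and lists, including the marker lists, were chosen with earlier results of these data known. Named genes were those called at a fold of at least 2, the highest and the smallest adjusted p in each role, the related pairs, and the 2 largest changes that passed in each other list. Further genes were named for their role, and 1 gene, its pair and some promoter sequences are not reported here. The expressed pairs were compared with exact permutation tests in scipy 1.17.1, and the pair of Snrpn and Snrpb was left out because Snrpn was too low. Alternatives were other pseudocounts (0.01 and 1), filters (none, or 1 FPKM), scalings, no trend, a replicate block, an Xist term, WT libraries without Xist, and leaving out each library. For the pairs only the pseudocounts, the replicate block and leaving out each library were tried. The fit was tested on simulated data.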

Additional observations from a re-analysis of the deposited data

Results flagged for a closer look

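In 7 of 94 groups of 5 libraries, the highest or lowest library lay farther from its neighbour than Dixon's 95% critical value of 0.71 of the range allows. Chance gives about 1 in 20, or 4.7 of 94. All 7 were in 2 libraries, 4 in cKO 1 and 3 in WT 1. In WT 1, Snrpa was at 32.1 FPKM against 41.0 to 41.4 FPKM in the other WT libraries, Prpf39 at 11.01 FPKM against 8.41 to 8.99 FPKM, and Sf3b1 at 62.97 FPKM against 57.8 to 59.2 FPKM. In cKO 1, Sf3b3 was at 50.62 FPKM against 60.9 to 64.7 FPKM in the other cKO libraries, Prpf3 at 15.18 FPKM against 20.3 to 21.2 FPKM, and Prpf19 at 32.74 FPKM against 38.1 to 40.2 FPKM. Prpf18 was high in cKO 1, at 23.85 FPKM against 14.1 to 15.6 FPKM.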

How the results depend on the processing

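Of the values and counts that answer a comparison, 128 stayed within the spread or within 1.5 times under the alternatives and 11 moved. The count called higher at a fold of at least 2 was 1 in the report and 0 with a pseudocount of 1 or with a mean of at least 1 FPKM required, where Lsmem2 was not tested. The 23 genes that rose became 15 with an Xist covariate and 11 with WT 1 and WT 2 alone, and the 3 that fell became 0 in each, and 1 with median-ratio scaling. That scaling moved the median from 0.22 to 0.33 (all genes from -0.11 to -0.01). Leaving out each library gave 17 to 24 genes that rose, 3 to 4 that fell, 1 called higher and 0 called lower at a fold of at least 2, a median of 0.17 to 0.23, 4 to 5 of 5 pairs, and 0 other pathway genes called. Over all genes the calls also became fewer, with 2035 higher and 4021 lower with the Xist covariate and 1640 and 3075 with WT 1 and WT 2 alone. The part of sex in the smaller counts was not tested apart from the smaller number of libraries.

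For single named genes, 364 values kept their direction and side of the threshold, 25 no longer passed, 4 newly passed and 5 changed sign. The last were Prpf4b (0.011) and Prpf38b (0.015) with median-ratio scaling, Prpf40b (0.27) and Snrpb2 (-0.0095) after quantile normalization, and Prpf40b (0.072) without cKO 1, for which leaving out each library gave -0.35 to 0.072. None of these 5 passed. No gene of the 47 that passed in 1 direction passed in the other under any alternative.

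Libraries with the same number in both groups had correlations of -0.0103 to 0.117, and those with different numbers -0.0974 to 0.0667. The highest were those of number 1 (0.117) and number 5 (0.0929), so whether the numbers pair some samples was not settled. With a replicate block 24 genes rose and 2 fell, of which 23 and 2 were among those of the report, and 0 of 5 pairs passed, since the exact test over 5 signed differences cannot go below 0.0625. Depth limits Snrpn, Lsmem1 and Lsmem2, at 0 to 39 fragments.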
